A study of Mus musculus with 2 samples.

Results

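The genes described here are 9 mouse genes that mark the 2 main kinds of blood monocyte, measured in bone marrow mononuclear cells with and without the herbal drug ninjin'yoeito (NYT). They were chosen by name, as the probes whose gene name in both scanner files is F13a1, Fn1, Vcan, Klf4, Plac8, Ms4a6c, Nr4a1, Treml4 or Ace. That gave 13 of 39429 probes and 9 of 30165 named genes. Femurs of C57BL/6 mice aged 2 to 4 months were flushed with medium holding 2% fetal bovine serum, and the mononuclear cells were cultured. RNA was taken at day 11 from 1 culture without the drug (control) and 1 culture given NYT, each hybridised to 1 one-colour array. The dose of NYT, the growth factors in the medium, and any pooling or sharing of animals between the cultures are not stated in the labels. Each group was 1 array, so no test could be run and no value has a replicate check.

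Monocytes are white blood cells that leave the bone marrow and become macrophages or dendritic cells in tissue. Classical monocytes enter inflamed tissue, and the genes F13a1, Fn1, Vcan, Plac8 and Ms4a6c are high in them in mice. Patrolling monocytes arise from classical ones, stay along the vessel wall, and need the nuclear receptor Nr4a1; Treml4 and Ace are among their marker genes. Klf4 is a transcription factor needed for monocytes to form, and it is counted here with the classical genes.

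On the array of the NYT culture, 3 of the 6 classical genes were at least 2-fold lower than on the control array: Fn1 17.6-fold, F13a1 6.05-fold and Plac8 3.15-fold. The other 3 classical genes, Vcan, Ms4a6c and Klf4, differed by -0.51, -0.25 and 0.42 on the log2 scale by the probe that stood for each. None of the 3 patrolling genes was 2-fold lower as scaled. Nr4a1 and Treml4 differed by -0.78 and -0.86, and Ace was 2.18-fold higher as scaled. Of the 9 genes, 3 (33.3%) were thus at least 2-fold lower, against 11.0% of the 16996 genes measured on both arrays, and 1 (11.1%) was at least 2-fold higher, against 11.2%. Without scaling between the arrays, 7 of the 9 were at least 2-fold lower, Nr4a1 and Treml4 among them, and so were 36.4% of all genes measured.

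All these values are log2 intensities, NYT minus control, after subtracting each array's 75th percentile. That percentile was 1475 on control and 728 on NYT, so the scaling adds 1.02 to every log2 difference. Over all genes measured the median difference was 0.29 as scaled, and each gene is also given relative to that median. Probes well above background made up 62.2% on control and 57.7% on NYT. Each of the 13 probes was printed once per array. The only errors are therefore the scanner software's own error for a spot, and the spread of 247 other probes printed 10 times (median SD of a difference, 0.053 on the log2 scale). Neither covers the spread between cultures. In RNA from mixed cells, fewer monocytes and less RNA per monocyte cannot be told apart.

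The sequences upstream of the outermost start site of 4 genes are shown first, because the 5′ probe of Plac8 begins exactly at its start site and the genes differ in which short motifs lie there. They are the 250 bases before the start from RefSeq (GRCm38.p6), which held 8 of the 9 genes, and read 5′ to 3′ along the gene. Capitals mark matches on either strand to GAGGAA (the core bound by PU.1, a monocyte transcription factor), CACCC (a core bound by KLF factors), CGTCA (the cyclic AMP response element core) and GAAANNGAA (bound by interferon regulatory factors).
F13a1, chr13:37050245-37050494, minus strand: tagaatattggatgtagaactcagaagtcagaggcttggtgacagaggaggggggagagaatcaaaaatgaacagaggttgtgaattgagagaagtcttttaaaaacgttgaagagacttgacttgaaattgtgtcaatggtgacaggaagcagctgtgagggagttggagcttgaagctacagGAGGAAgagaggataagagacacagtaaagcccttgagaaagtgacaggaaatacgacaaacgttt
Plac8, chr5:100572206-100572455, minus strand: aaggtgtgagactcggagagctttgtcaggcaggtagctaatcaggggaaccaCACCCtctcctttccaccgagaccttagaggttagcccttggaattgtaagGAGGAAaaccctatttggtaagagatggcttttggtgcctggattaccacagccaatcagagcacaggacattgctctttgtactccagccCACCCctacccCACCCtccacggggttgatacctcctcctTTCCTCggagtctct
Ms4a6c, chr19:11469118-11469367, plus strand: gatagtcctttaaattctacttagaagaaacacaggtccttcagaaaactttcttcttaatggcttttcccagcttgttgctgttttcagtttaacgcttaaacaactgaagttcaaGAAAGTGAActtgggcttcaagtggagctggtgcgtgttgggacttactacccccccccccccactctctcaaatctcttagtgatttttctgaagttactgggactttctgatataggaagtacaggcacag
Nr4a1, chr15:101266596-101266845, plus strand: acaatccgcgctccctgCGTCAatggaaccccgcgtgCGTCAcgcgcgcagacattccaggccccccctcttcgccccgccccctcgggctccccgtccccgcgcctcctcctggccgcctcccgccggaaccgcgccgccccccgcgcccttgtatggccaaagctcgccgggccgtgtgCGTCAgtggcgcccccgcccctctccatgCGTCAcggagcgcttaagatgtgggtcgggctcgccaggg
Nr4a1 held 4 matches to CGTCA and Klf4 1, and the other 6 genes with a sequence held none; 17.8% of 27025 promoters of the same length have at least 1. GAGGAA was found in 4 of the 8 genes (F13a1, Plac8, Treml4 and Ace), against 23.1% of all promoters. CACCC was found in Vcan, Plac8, Treml4 and Ace, against 51.3%. GAAANNGAA was found in Ms4a6c alone, against 7.16%. None of the 8 held TTGCNNAA (C/EBP, 9.55% of all promoters) or AAAGGTCA (the NR4A element, 1.31%). Genes with GAGGAA included F13a1 and Plac8, lower on the NYT array, and Ace, higher as scaled. The matches are letters in a window, and no binding was measured.

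F13a1 encodes the A subunit of coagulation factor XIII, a transglutaminase that crosslinks fibrin and is made by monocytes, macrophages and megakaryocytes. Its brighter probe is at chr13:36959214-36959273, minus strand (mm9), toward the 3′ end, and matches both RefSeq variants. It read 21056 on control (software error 2106) and 1717 on NYT (software error 172) before scaling. The difference was -2.60 as scaled (software error 0.20), or -2.88 relative to all genes, and 3.58% of genes measured had a lower difference. A second probe, at 37063829 to 37063888 on the same strand, lies nearer the 5′ end. It read 193 and 31.9, a difference of -1.58 (software error 0.28), or 2.98-fold. Both F13a1 probes were thus lower on the NYT array, but their sizes differed by more than the spot error.

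Fn1 encodes fibronectin, a matrix glycoprotein that monocytes make along with fibroblasts. Its probe, on chromosome 1 at 71632116 to 71632175, minus strand (mm9), read 17179 on control and 481 on NYT, with software errors of 1718 and 48.2. The difference of -4.14 (software error 0.20) was the lowest of the 9 genes, and 1.06% of genes measured lay lower. Of its receptors and binding partners, 6 of 8 fixed genes were measured and none was 2-fold lower as scaled. Itga5, the fibronectin receptor's alpha chain, was 3.04-fold higher as scaled and Itgb1, its beta chain, gave 0.97 and 2.31 with different probes. The list's median was 0.67 as scaled and -0.34 without scaling, where 2 of the 6 were at least 2-fold lower and 0 higher.

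Vcan encodes versican, a large proteoglycan that classical monocytes express. Its probes gave different sizes. The probe in the 3′ part of 4 variants (chromosome 13, 89795080 to 89795139, minus strand, mm9) read 530 on control and 41.3 on NYT, 6.35-fold lower as scaled. The one nearer the 5′ end, at 89851810 to 89851869, also matching 4 variants, read 293 and 101, a difference of -0.51 (1.43-fold). That second probe stood for the gene because its mean log2 intensity over both arrays was the higher, although the first was brighter on control. Averaging the probes gave -1.59. The third probe, at 89850072 to 89850131, matches variant 5 alone and was at background on both arrays. The probes of F13a1 and Vcan nearer the 5′ end are shown because in both genes, of the probes well above background, they gave the smaller difference (no base is in capitals).
F13a1 probe nearer the 5′ end: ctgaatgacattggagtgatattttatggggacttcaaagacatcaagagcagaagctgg
Vcan probe nearer the 5′ end: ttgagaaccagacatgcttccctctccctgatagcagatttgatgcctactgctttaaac

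Among versican's partners and proteases, 6 of 15 fixed genes were measured, 2 of them at least 2-fold higher and 2 lower. Adamts1, a protease that cuts versican, was 6.32-fold higher on the NYT array as scaled, and its relative Adamts4 differed by -1.82. Tlr2, a receptor reported to bind versican, differed by -1.16. Acan, the related proteoglycan aggrecan, was 2.22-fold higher as scaled, but dim, at scaled log2 intensities of -5.46 on control and -4.31 on NYT. Without scaling 1 gene of this list was at least 2-fold higher and 2 were lower.

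Plac8 encodes a small cysteine-rich protein found in monocytes and other blood cells. Its 3′ probe (chromosome 5, 100982797 to 100982856, minus strand, mm9) read 23460 on control and 3678 on NYT, a difference of -1.66 (software error 0.20). The 5′ probe, at 101001165 to 101001224, starts at the first base of the transcript, and its first 50 bases follow directly on the Plac8 sequence printed above. It read 1743 and 255, a difference of -1.76 (software error 0.21). The ends of the Plac8 transcript thus differed between the arrays by amounts within the software error of each other.

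Ms4a6c belongs to a family of proteins that cross the membrane 4 times. Its probe (chromosome 19, 11545580 to 11545639, plus strand, mm9) read 10200 on control and 4242 on NYT, with software errors of 1020 and 424. Scaled, the difference was -0.25 (software error 0.20), and 26.2% of genes measured lay lower. Family members varied in size of difference: of 14 others, 8 were measured, with 4 at least 2-fold lower, 0 higher and a median of -1.40. Ms4a4b, a T cell gene, was 66.3-fold lower, Ms4a4a 12.1-fold, Ms4a3, a gene of granulocyte and monocyte progenitors, 8.93-fold and Ms4a6b 7.45-fold. Ms4a5 and Ms4a2, the latter the beta chain of the IgE receptor, were well above background on the control array alone, at least 11.9-fold and 3.33-fold lower. Ms4a6d, the close relative of Ms4a6c, stood at 0.09. Ms4a4c stood at 0.23 by its brightest probe and at -2.20 and -3.59 by others. Probes of such similar genes may detect one another, which leaves each single value uncertain.

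Klf4 read 991 on control and 657 on NYT (chromosome 4, 55540167 to 55540226, minus strand, mm9), with software errors of 99.3 and 65.8. As scaled it was 1.34-fold higher (0.42, software error 0.20), and relative to all genes 0.14 higher. Its sign turned without scaling (-0.59) and with spike-in scaling (-0.75), so no direction is given for Klf4. Spike-in scaling rests on RNAs added in known amounts, whose slope of signal against amount the scanner software put outside its accepted range on NYT (0.831) and inside it on control (0.942). Of 16 other KLF genes, 11 were measured, 4 of them at least 2-fold lower and none higher. Those were Klf5 (-3.17), Klf2, a factor of quiescent leukocytes and endothelium (-1.89), Klf7 (-1.70) and Klf11 (-1.17).

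**Figure D1:**
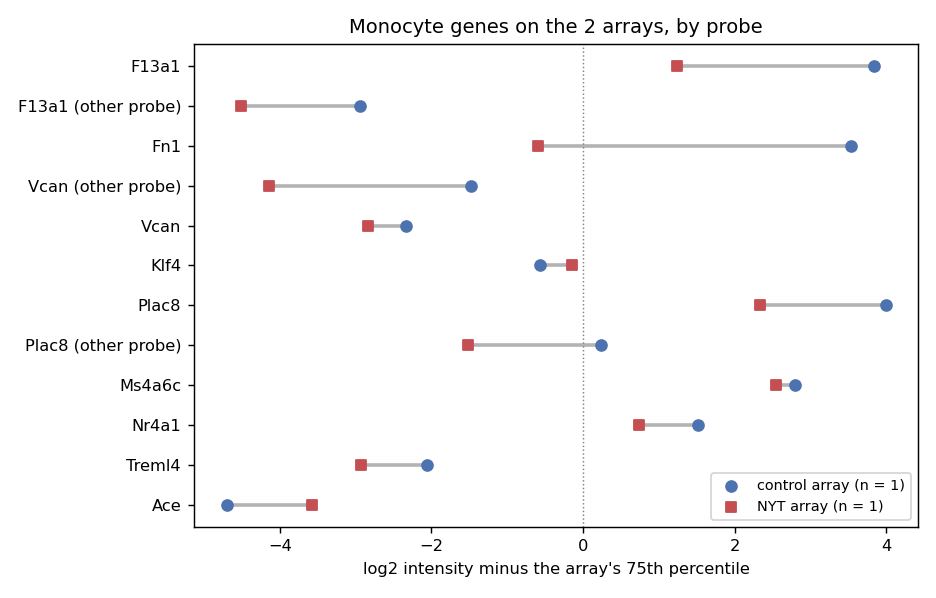
Scaled log2 intensity of the 12 probes well above background on both arrays (x axis, log2 intensity minus the array's 75th percentile; circles, control array; squares, NYT array; 1 array each, so no error bars). Fn1 has the longest line, from 3.54 on control to -0.60 on NYT, and only Klf4 and Ace have the NYT point to the right.

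Nr4a1 encodes the nuclear receptor Nur77, which is induced quickly by many stimuli and is required for patrolling monocytes. Its probe (chromosome 15, 101105071 to 101105130, plus strand, mm9) read 4241 on control and 1216 on NYT, with software errors of 424 and 122. The difference was -0.78 as scaled (software error 0.20), -1.07 relative to all genes, and 13.4% of genes measured lay lower. Of its 2 relatives, Nr4a2 stood at -0.25 and Nr4a3 had no probe well above background. Egr1, another quickly induced factor, was 7.37-fold lower on the NYT array and Egr2 differed by -0.89.

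Treml4 encodes a receptor of the TREM family on patrolling monocytes and some macrophages and dendritic cells. Its probe (chromosome 17, 48413947 to 48414006, plus strand, mm9), which matches 4 variants, read 353 on control and 95.7 on NYT, with software errors of 35.7 and 10.4. The difference was -0.86 as scaled (software error 0.21), but -0.35 with normexp background correction. All 5 other TREM genes differed by at least 2-fold as scaled. Treml1, a platelet gene, was 13.7-fold lower on the NYT array, Trem3 8.98-fold and Treml2 5.17-fold (-1.36 by its other probe), and Trem1, which amplifies inflammation, 2.27-fold. Trem2, a lipid-sensing receptor of macrophages, was 3.10-fold higher as scaled. Their signalling partners Tyrobp, Hcst and Syk were all under 2-fold as scaled, at 0.32, -0.60 and -0.13. Without scaling 2 of these 3 were at least 2-fold lower, with a median of -1.15.

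Ace encodes angiotensin-converting enzyme, which patrolling monocytes share with endothelium. Its probe (chromosome 11, 105850398 to 105850457, plus strand, mm9) was dim, at 56.8 on control and 61.2 on NYT before scaling, with software errors of 8.06 and 7.59. Those readings overlapped within the software error, and the 2.18-fold difference (1.12, software error 0.27) comes from the scaling. Loess gave 0.85, unscaled values 0.11 and spike-in scaling -0.05. Of 9 other genes of the angiotensin system, 3 were measured and none differed 2-fold. Agt, the precursor angiotensinogen, stood at 0.89, Ren1, the renin gene, at 0.91 and Lnpep at 0.12. Agt and Ren1 were also dim, at scaled log2 intensities of -5.24 and -5.01 on control. Without scaling the median of these 3 genes was -0.12.

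**Figure D2:**
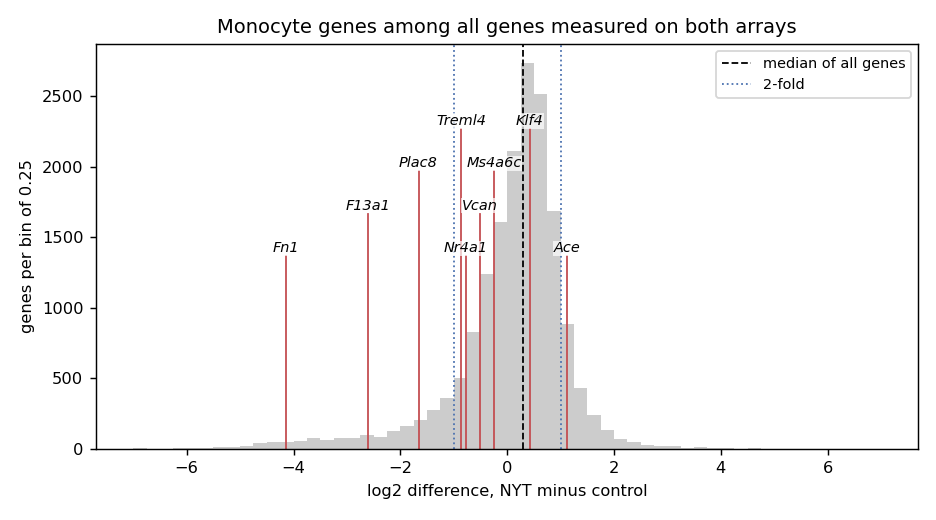
Log2 differences, NYT minus control, of the 16996 genes measured on both arrays (grey bars, genes per bin of 0.25; 9 genes beyond 7 either way are in the end bars), with the 9 monocyte genes as red lines whose heights only separate the names. Fn1, F13a1 and Plac8 lie left of the dotted 2-fold line, where 11.0% of all genes lie, and Ace lies just right of the other.

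The 9 genes spanned 5.27 on the log2 scale, from Fn1 to Ace, and this span does not change with any setting that adds 1 constant per array. Their median was -0.78, or -1.07 relative to all genes, and 7 of 9 were below 0, against 35.6% of all genes. Classical genes had a median of -1.08 and patrolling genes -0.78. With so few genes and 1 array each, no difference between these groups was tested. Relative to all genes, Fn1 lay between -4.64 and -4.33, F13a1 between -3.10 and -2.38 and Plac8 between -2.16 and -1.94 across the settings tried. Nr4a1 lay between -1.29 and -1.03, Ms4a6c between -0.75 and -0.53, and Klf4 between -0.08 and 0.25. The ranges of Vcan (-1.92 to -0.53) and Treml4 (-1.37 to -0.69) were wider, and Ace lay between 0.62 and 1.11.

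**Figure D3:**
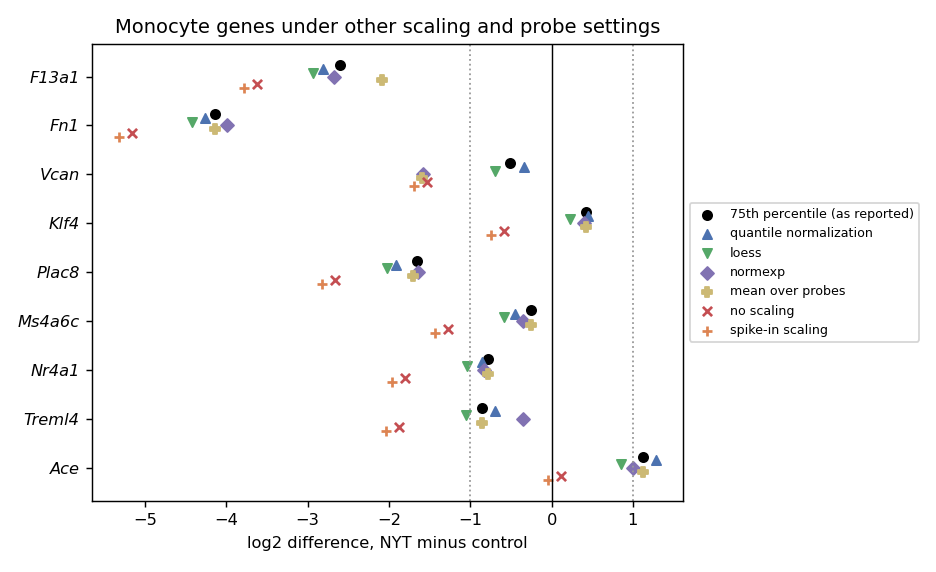
Log2 difference of each gene (x axis, NYT minus control) under 7 of the settings (symbols; 1 array per group, dotted lines at 2-fold). F13a1, Fn1 and Plac8 are beyond 2-fold lower in each, Klf4 changes sign without scaling and with spike-in scaling, and Vcan moves from -0.51 to -1.58 with normexp.

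Other monocyte genes, from lists chosen with earlier results of these data known, also went both ways. Of 19 other classical genes 18 were measured, with 10 at least 2-fold lower, 1 higher and a median of -1.38. Ccr2, the chemokine receptor by which classical monocytes leave the marrow, was 20.1-fold lower, Tgfbi 10.4-fold, the haptoglobin gene Hp 7.50-fold and Ms4a6b, also in the MS4A family list, 7.45-fold. Clec4e, a receptor for microbial glycolipids, was 2.23-fold higher as scaled.

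Of 16 other patrolling genes 13 were measured, with 4 at least 2-fold lower, 2 higher and a median of -0.31. Cx3cr1, the fractalkine receptor that defines these cells, was 16.2-fold lower. Itgal, the integrin chain by which they crawl, was 6.05-fold lower by its brightest probe, whereas another probe gave -0.35. Itgax and Spn differed by -2.15 and -2.07. Adgre4 was detected on the control array alone, at least 8.87-fold lower. Gngt2 and Cd36, a lipid scavenger receptor, were 2.10-fold and 2.01-fold higher as scaled. Without scaling the 2 list medians were -2.40 and -1.33, and no gene of either list was then 2-fold higher.

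Of 14 regulators of the monocyte lineage, all measured, 4 were at least 2-fold lower and none higher, with a median of -0.65. The lower ones were Gfi1, a repressor that favours granulocytes (-3.02), Egr1 (-2.88), Klf2 (-1.89) and Maf (-1.01). Spi1, which encodes PU.1, stood at 0.20, Irf8 at -0.14, Cebpa at 0.19 and Cebpb, which patrolling monocytes need, at 0.44. Csf1r, the receptor for the monocyte growth factor, differed by -0.89 by its brightest probe. Transglutaminases related to F13a1 were all under 2-fold as scaled (4 of 8 genes in that list measured), with Tgm2 at -0.61. Without scaling all 4 were at least 2-fold lower, with a median of -1.30.

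Several of the 9 genes are also made by other cells in marrow, whose markers also differed between the arrays. All 10 stromal markers were lower on the NYT array or detected on control alone: 5 of 6 measured were at least 2-fold lower (median -3.17), and the 4 others had bounds of at least 2-fold. Their summed scaled intensity was 22.4 on control and 2.45 on NYT, where the 75th percentile is 1. Col1a1, a collagen chain, was 40.2-fold lower and Postn at least 28.0-fold. Fn1 and Vcan are expressed by such cells, and the part of stromal cells in their values was not tested.

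Of 10 endothelial markers, 5 were measured with 2 at least 2-fold lower, and 4 were detected on control alone. Of those 4, 1 had a bound of at least 2-fold: Tie1, at least 11.7-fold lower. Their summed intensity was 43.6 on control and 14.8 on NYT, but without Vwf, the von Willebrand factor gene, it was 8.0 and 10.8. Without scaling the sums with Vwf were 64386 and 10766, and 4 of the 5 measured were at least 2-fold lower (median -1.94). Vwf was 9.01-fold lower by its brightest probe and differed by -0.48 by another. Kdr, a receptor for vascular endothelial growth factor, stood at 0.98 as scaled by its brightest probe and at 0.04 by another. The scaled log2 intensity of that brightest Kdr probe was 2.13 on control and 3.11 on NYT. The 4 other measured endothelial markers had differences below 0, among them Pecam1 at -1.88, and Cldn5 had no probe well above background. The part of endothelial cells in the value of Ace was not tested. Of 12 macrophage markers 9 were measured, 5 lower and 2 higher, with summed intensities of 377 and 547, or 270 and 211 without Gpnmb, 3.14-fold higher as scaled. C1qa was 37.1-fold lower, C1qb 13.4-fold and C1qc 12.0-fold. The 3 others were detected on control alone, 2 of them with bounds of at least 2-fold, the larger being Vsig4 at 15.2-fold. Without scaling 7 macrophage markers were lower and 0 higher, and their sums were 555725 and 398148. Neutrophil markers were lower in 9 of 10, with sums of 342 and 34.4. Of 10 dendritic cell markers 9 were measured, 3 of them lower (median 0.30; sums 75.2 and 98.0). Without scaling the dendritic median was -0.72 and the sums were 110885 and 71402. Of 10 lymphocyte markers 8 were measured, again with 3 lower and 5 under 2-fold. The sums were 77.2 and 24.1, or 34.0 and 23.3 without Jchain, a plasma cell gene. Besides Jchain, the lower ones were Cd3d, 30.4-fold, and Cd3g, 12.5-fold. The 2 others, Klrb1c and Ncr1, were detected on control alone, at least 49.9-fold and 22.8-fold lower. The part of these cells in the values of Plac8, F13a1, Treml4 and the other classical and patrolling genes was not tested. All 6 markers shared by white blood cells were well above background on both arrays, with Ptprc, which encodes CD45, at -0.95 and sums of 152 and 100.

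**Figure D4:**
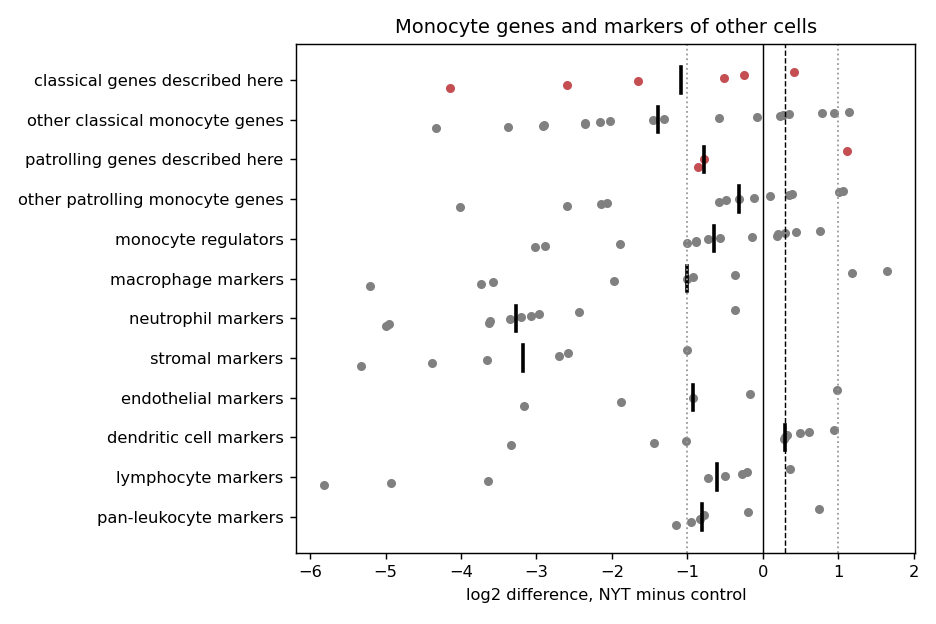
Log2 differences, NYT minus control, of the genes measured on both arrays in each list (points; black bars, list medians; dashed line, median of all genes; dotted lines, 2-fold; 1 array per group). Genes detected on 1 array alone are not drawn. Classical genes spread from -4.14 to 0.42, while neutrophil and stromal markers have medians of -3.28 and -3.17.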

How the data were processed

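RNA of 2 bone marrow cultures, 1 control and 1 NYT as stated by the treatment label, was measured on 1 Agilent whole-mouse array each. The intensity of each spot was deposited by the authors as output of Agilent's scanner software, Feature Extraction (10.7.1.1 in the file headers, 9.5.1.1 in the submitters' processing notes), detrended and with no scaling between the arrays. The other values used from these files are the flags the software set for a spot. A value table deposited by the authors is also intensity on a linear scale: of 39429 probes, 39073 had sorted values that matched between the columns to a tolerance of 1e-06 of the value, so it was quantile normalized. Its median was 72.1 in both columns, it was not centred, and its direction followed its columns.

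Outlier spots were left out (258 on control and 165 on NYT), and no spot was saturated. Spots of a probe were averaged as log2 values, from which the array's 75th percentile was taken off. A probe counted as well above background if over 50% of its spots carried that flag. A gene was represented by its probe with the highest mean log2 value among those well above background on both arrays. For genes detected on 1 array the fold is a lower bound, taken against the lowest detected signal of the dim array or, if higher, the dim probe's signal. Names came from RefSeq genes of GRCm38.p6 (26755 by accession, 3819 by symbol, 639 by synonym; 8216 kept the file's name). Probe coordinates are mm9 per the file headers.

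Differences were counted at 2-fold, without tests. The number of arrays limits the precision. The genes named are the 9 monocyte genes, with all their probes, and from each other list up to 4 measured genes with the largest difference and up to 2 with a bound; others are named for their role, after their values were seen. From the list of other classical genes, 1 gene is not reported here and was left out of that list. Some genes, such as Klf2 and Ms4a6b, stand in 2 lists. The genes and lists were chosen with earlier results of these data known. Alternatives were quantile normalization, median, loess, spike-in or no scaling, normexp with an offset of 50, the authors' table, 2 filters on dim probes, the mean over probes, another detection flag and a 3-fold threshold. Counting was tested on simulated data for the NYT against control comparison (16996 genes): 0 of 67 genes changed 1.5-fold, 67 of 67 changed 3-fold and 66 of 66 changed 6-fold were called, and 0 of 16796 unchanged ones. The simulated noise was the spot SD of 0.053 alone, without spread between cultures. With noise so small the outcome was fixed in advance, so it checks the counting step and not the error rate of the real counts. Python 3.11.15, R 4.3.3 and limma 3.58.1 were used.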

Additional observations from a re-analysis of the deposited data

Results flagged for a closer look

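The E1A spike-ins, RNAs added to each sample in known amounts, lie outside the main measurement, and 1 of them gave more signal with NYT than on the control array. E1A_r60_a107 read 6.32 on control and 8.57 on NYT (log2 intensity, not scaled), a difference of 2.25. Of the 10 spike-ins 8 were detected on both arrays, and the 7 besides this one differed by -0.12 to 0.24. The median of the 8, 0.16, set the spike-in scaling used above. On the NYT array the software marked the spike-in slope, 0.831, as out of range.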

How the results depend on the processing

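No paired analysis was possible because only 1 array was made for each culture; for the same reason none could be left out. Genes at least 2-fold higher and lower on the NYT array, 1904 and 1868 as reported, numbered 211 and 6190 without scaling, 166 and 7485 with spike-in scaling, 4750 and 3414 when dim probes were kept, 865 and 626 over the brighter genes alone, and 507 and 1167 at 3-fold. After loess 950 were higher and 2359 lower, and with the other detection flag 3572 were higher and 2737 lower. Of the 9 monocyte genes, 7 were lower without scaling and with spike-in scaling and 5 after loess, in place of 3. The count of higher genes was 0, in place of 1, under those 3 settings, among the brighter genes (5 of the 9 entered) and at 3-fold. Their median, -0.78 as reported, was -0.70 with quantile normalization, -0.69 in the authors' table, -1.80 without scaling, -1.96 with spike-in scaling, -1.04 after loess, -1.66 among the brighter genes and -0.86 with the mean over probes. Klf4 reversed to -0.59 without scaling and -0.75 with spike-in scaling, and Ace to -0.05 with spike-in scaling. Going without scaling, or scaling to spike-ins, adds 1 constant to every value; fewer or more genes entered under the filters and the flag; the cause was not tested for loess, quantile normalization and the authors' table. F13a1, Fn1 and Plac8 stayed at least 2-fold lower in all 11 alternatives that keep the threshold, and at 3-fold. Of 95 values of single monocyte genes under the alternatives, 3 changed sign, 44 moved by less than the spot SD of 0.053 and 48 by more. Signal over background limits the dim probes. With normexp Vcan moved from -0.51 to -1.58, Treml4 from -0.86 to -0.35 and Ace from 1.12 to 1.0.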
